A study of Mus musculus with 2 samples.

Results

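Ccl3, Ccl4, Ccl6, Ccl9, Cxcl2 and Ccl5 are 6 chemokine ligand genes that were read from single-cell libraries of mouse bone marrow. They were taken by symbol, were present in both deposited tables, and make up 6 of the 24014 gene symbols that the tables hold together. Each was described by the cell class in which its transcripts lay, and then by the high fat diet (HFD) library against the normal diet (ND) library. The study fed male mice, of strain C57B/6 and wild type by their labels, either normal chow or a diet with 60% fat, in both cases for 16 weeks. Bone marrow of each group gave 1 library on the BD Rhapsody system, which counts unique molecular identifiers (UMIs) per gene and cell. The labels call the mice young without an age and do not say how many mice a library holds, so a difference between the libraries has no replicate behind it and no test or p-value is given. The labels name no sort or gate.

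Chemokines are small secreted proteins that bind receptors on leukocytes and direct their movement. Ccl3 and Ccl5 act on the receptor Ccr1 among others, Ccl6 and Ccl9 are rodent ligands of Ccr1, and Cxcl2 acts on Cxcr2, the receptor through which neutrophils leave the marrow. Ccl3 and Ccl4 are induced together in many activated leukocytes, while Ccl5 is a product of memory and cytotoxic lymphocytes. Although the 6 genes are often grouped as myeloid chemokines, the data went against that name for Ccl5: T cell-like and NK cell-like cells held 93.7% of its UMIs in the ND library and 94.2% in the HFD library. They are therefore called chemokine ligand genes here.

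In the RefSeq annotation 5 of the genes are neighbours on mouse chromosome 11, in the order Ccl5, Ccl9, Ccl6, Ccl3 and Ccl4 among coding genes, and Cxcl2 lies beside Cxcl1 on chromosome 5. The annotated intervals of Ccl3 and Ccl4 overlap, and no source used here gives whether the counting used strand. UMIs in the overlap may therefore have gone to either gene. Promoters are shown first, because they are the sequences that stand before the transcripts counted below. RefSeq's promoter table (GRCm38.p6) held 4 of the 6 genes, so those of Ccl4 and Ccl5 are not shown. The 250 bases before the annotated start lie at chr5:90903649-90903898 on the plus strand for Cxcl2, and on the minus strand at chr11:83578637-83578886 for Ccl9, chr11:83593088-83593337 for Ccl6 and chr11:83649379-83649628 for Ccl3. They are written 5′ to 3′ along the gene, and capitals mark matches to any of 5 motifs searched on both strands.
Cxcl2: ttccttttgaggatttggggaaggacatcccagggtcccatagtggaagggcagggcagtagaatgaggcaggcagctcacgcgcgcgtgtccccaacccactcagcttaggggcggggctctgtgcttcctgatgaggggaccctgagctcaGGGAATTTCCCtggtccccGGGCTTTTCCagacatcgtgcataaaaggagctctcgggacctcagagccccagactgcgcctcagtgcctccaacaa
Ccl9: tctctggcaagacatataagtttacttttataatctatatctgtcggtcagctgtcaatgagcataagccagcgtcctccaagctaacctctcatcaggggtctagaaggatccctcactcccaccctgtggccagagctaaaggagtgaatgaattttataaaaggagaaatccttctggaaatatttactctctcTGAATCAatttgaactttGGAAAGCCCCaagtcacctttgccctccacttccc
Ccl6: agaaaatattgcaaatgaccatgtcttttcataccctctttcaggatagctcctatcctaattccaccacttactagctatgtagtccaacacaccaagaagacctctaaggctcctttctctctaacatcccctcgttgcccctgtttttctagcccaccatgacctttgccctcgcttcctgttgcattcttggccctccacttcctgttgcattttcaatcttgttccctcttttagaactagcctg
Ccl3: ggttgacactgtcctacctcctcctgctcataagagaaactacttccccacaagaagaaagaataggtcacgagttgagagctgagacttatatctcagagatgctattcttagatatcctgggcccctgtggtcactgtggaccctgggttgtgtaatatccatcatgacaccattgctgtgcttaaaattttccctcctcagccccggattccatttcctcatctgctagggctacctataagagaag
The motifs were an NF-kB-like one, GGG and TTCC with 3 free bases between, its narrower form, GGG and TTTCC with 2 free bases between, TGANTCA, which resembles an AP-1 site, TTGCNNCAA, which resembles a C/EBP site, and the CRE TGACGTCA. Cxcl2 held GGGAATTTCC from 97 to 88 bases before the start, which overlaps a match on the other strand, and GGGCTTTTCC from 78 to 69 bases before it. Ccl9 held TGAATCA from 53 to 47 bases before the start and GGAAAGCCCC, a match of the NF-kB-like motif on the other strand, from 35 to 26 bases before it. The windows of Ccl6 and Ccl3 held none of these letters. Of 32851 promoters of the same length, 4.65% held the NF-kB-like motif, 1.41% held its narrower form, 6.75% held TGANTCA, 1.74% held TTGCNNCAA and 1.55% held TGACGTCA. These matches describe letters and not binding.

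After filters and removal of doublets, 13882 of 16817 ND cells and 15185 of 17282 HFD cells were kept, with medians of 4478 and 4068 UMIs. The cells formed 30 clusters in 19 marker-defined classes, each with at least 100 cells in both libraries. Chemokine genes were left out of the clustering and the naming, so a class was not made from the genes described here. The names rest on markers only and are written as "-like". Between the libraries, 329 cell indices occurred in both, and 250 of them belonged to kept cells in both libraries. Levels are CPM, the UMIs of a gene per 1000000 UMIs of the class in a library. Fold differences are log2 ratios of HFD over ND with an exact binomial 95% interval. These intervals cover counting error only, not differences between mice, and they leave out the clustering of UMIs in single cells. The term called is kept for genes that had at least 20 UMIs over both libraries, differed by at least 1.5-fold and had an interval on 1 side of 0.

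**Figure D1:**
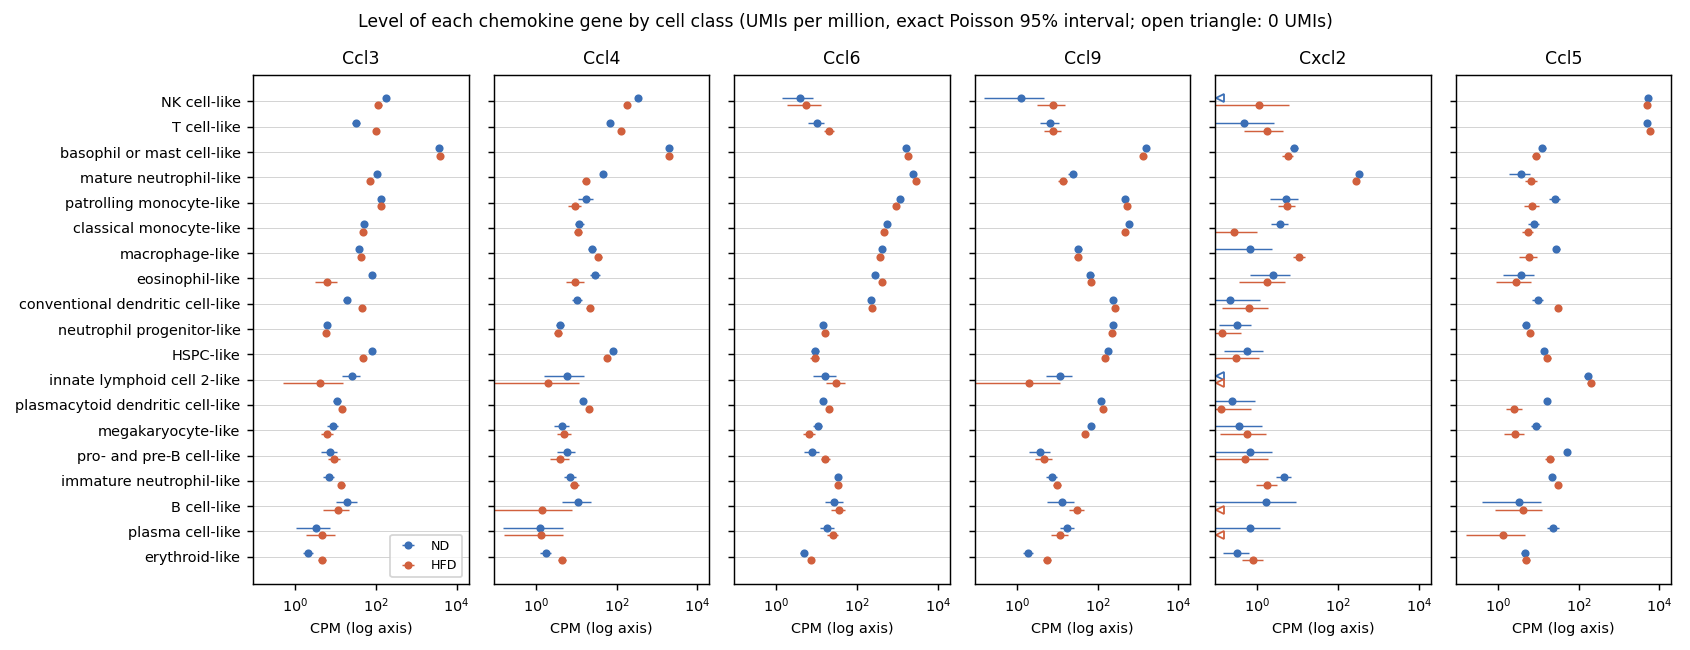
Level of each of the 6 genes in 19 cell classes, in CPM on a log axis, with exact Poisson 95% intervals. Blue points are the ND library, orange points the HFD library, and an open triangle at the left edge marks 0 UMIs. Ccl3 and Ccl4 peaked in basophil or mast cell-like cells, Ccl6 and Cxcl2 in mature neutrophil-like cells and Ccl5 in T cell-like and NK cell-like cells.

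Ccl3 and Ccl4 transcripts came almost wholly from the basophil or mast cell-like class. This class held 10.6% of ND cells and 9.5% of HFD cells, but 92.8% and 92.1% of the Ccl3 UMIs and 89.3% and 90.7% of the Ccl4 UMIs. Ccl3 stood at 3726 CPM in the ND library and 3763 CPM in the HFD library, which made it the 14th most abundant of 10997 genes of the class. Ccl4 stood at 1986 and 2001 CPM and ranked 47th. The class next in order for Ccl3 was NK cell-like in the ND library, at 175 CPM, and patrolling monocyte-like in the HFD library, at 135 CPM, with an interval that overlapped that of NK cell-like cells. For Ccl4 it was NK cell-like in both, at 344 and 178 CPM. Erythroid-like cells, which should lack both, held 2.04 and 4.72 CPM of Ccl3 and 1.76 and 4.54 CPM of Ccl4. Their median depth was high, at 24791.5 and 20833 UMIs, and equal stray UMIs per cell give a lower level in deeper cells. This limit holds for the later comparisons with erythroid-like cells too.

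The basophil levels of Ccl3 and Ccl4 were close to equal in the libraries. On the log2 scale HFD over ND came to 0.01 for Ccl3 (interval -0.01 to 0.04) and 0.01 for Ccl4 (-0.02 to 0.04). With each cell thinned to 1000 UMIs, Ccl3 was found in 78.1% of ND and 79.0% of HFD cells of the class, and Ccl4 in 57.8% and 60.4%. The corresponding shares in erythroid-like cells were 0.19% and 0.77% for Ccl3 and 0.38% and 0.77% for Ccl4. Before thinning, the basophil shares for Ccl3 were 88.0% and 88.3%, and the median basophil-like cell held 4019 UMIs in the ND library and 4096.5 in the HFD library.

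Ccl9 was also highest in this class, at 1619 CPM in the ND library and 1368 CPM in the HFD library, a log2 ratio of -0.24 (-0.28 to -0.21). Ccl6 stood there at 1662 and 1805 CPM, a log2 ratio of 0.12 (0.09 to 0.15). None of the 6 genes was called in the class, where 1.72% of all genes tested were called higher and 1.45% lower. Cxcl2 was low in it, at 8.03 and 5.64 CPM against 0.32 and 0.79 CPM in erythroid-like cells, as was Ccl5, at 12.7 and 8.75 CPM against 4.56 and 5.08 CPM. All 4 of Ccl3, Ccl4, Ccl6 and Ccl9 were found in 30.8% of thinned ND cells and 33.9% of thinned HFD cells, while 14.5% and 15.2% held none of them. Among ND cells with a Ccl3 UMI, 71.4% also held Ccl4 (68.6% to 74.0%, exact Clopper-Pearson 95% interval), against 9.4% (6.5% to 13.2%) of those without. In the HFD library the shares were 74.6% and 6.8%.

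This spread within the class followed its 2 clusters. Cluster 9 had 580 ND and 618 HFD cells, a median of 9152 ND UMIs per cell, and the higher levels of the basophil proteases Mcpt8 (31192 CPM in the ND library, against 9171 in cluster 10) and Prss34. It also held the proliferation genes Mki67 at 648 CPM and Top2a at 1017 CPM, against 29.9 and 32.3 CPM in cluster 10. Cluster 10 had 885 and 818 cells, a median of 3040 ND UMIs, and more Csf1, Osm and C3ar1. The connective tissue mast cell proteases Cma1, Tpsb2 and Mcpt4 were below 1 CPM or absent in both clusters and libraries. Cpa3 and Kit, also markers of the joint class, stood at 6064 and 6716 CPM and at 29.6 and 27.8 CPM in cluster 9. In cluster 10 they stood at 1789 and 1639 CPM and at 3.82 and 7.75 CPM. The class therefore keeps its joint name, which is shortened to basophil in places.

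Ccl3 stood at 1468 CPM in cluster 9 and 8211 CPM in cluster 10 of the ND library, and at 1635 and 8509 CPM in the HFD library. Ccl4 stood at 465 and 5008 CPM in the ND library and at 559 and 5217 CPM in the HFD library. Ccl9 stood at 344 and 4154 CPM, and at 366 and 3601 CPM in the HFD library. Ccl6 differed most, with 129 CPM in cluster 9 and 4709 CPM in cluster 10 of the ND library, 36.6-fold apart, and 204 and 5375 CPM in the HFD library, 26.3-fold apart. Since cells of cluster 10 were shallower, the gap was smaller per cell: Ccl3 averaged 14.5 UMIs per ND cell in cluster 9 and 26.7 in cluster 10, and Ccl6 averaged 1.27 and 15.3.

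Between diets, Ccl6 was the only 1 of these 4 genes called in either cluster. Its log2 ratio was 0.67 (0.53 to 0.80) in cluster 9, where 1.75% of all genes were called higher, and 0.19 (0.16 to 0.23) in cluster 10. Ccl9 was lower in the HFD library in cluster 10 at -0.21 (-0.25 to -0.17) and stood at 0.09 (0.00 to 0.18) in cluster 9. Cxcl2 was called lower in cluster 10 at -1.20 (-2.07 to -0.38), on 46 and 18 UMIs in 6 and 5 cells, where 1.75% of genes were called lower. Cluster 9 made up 39.6% of the class in the ND library and 43.0% in the HFD library.

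**Figure D2:**
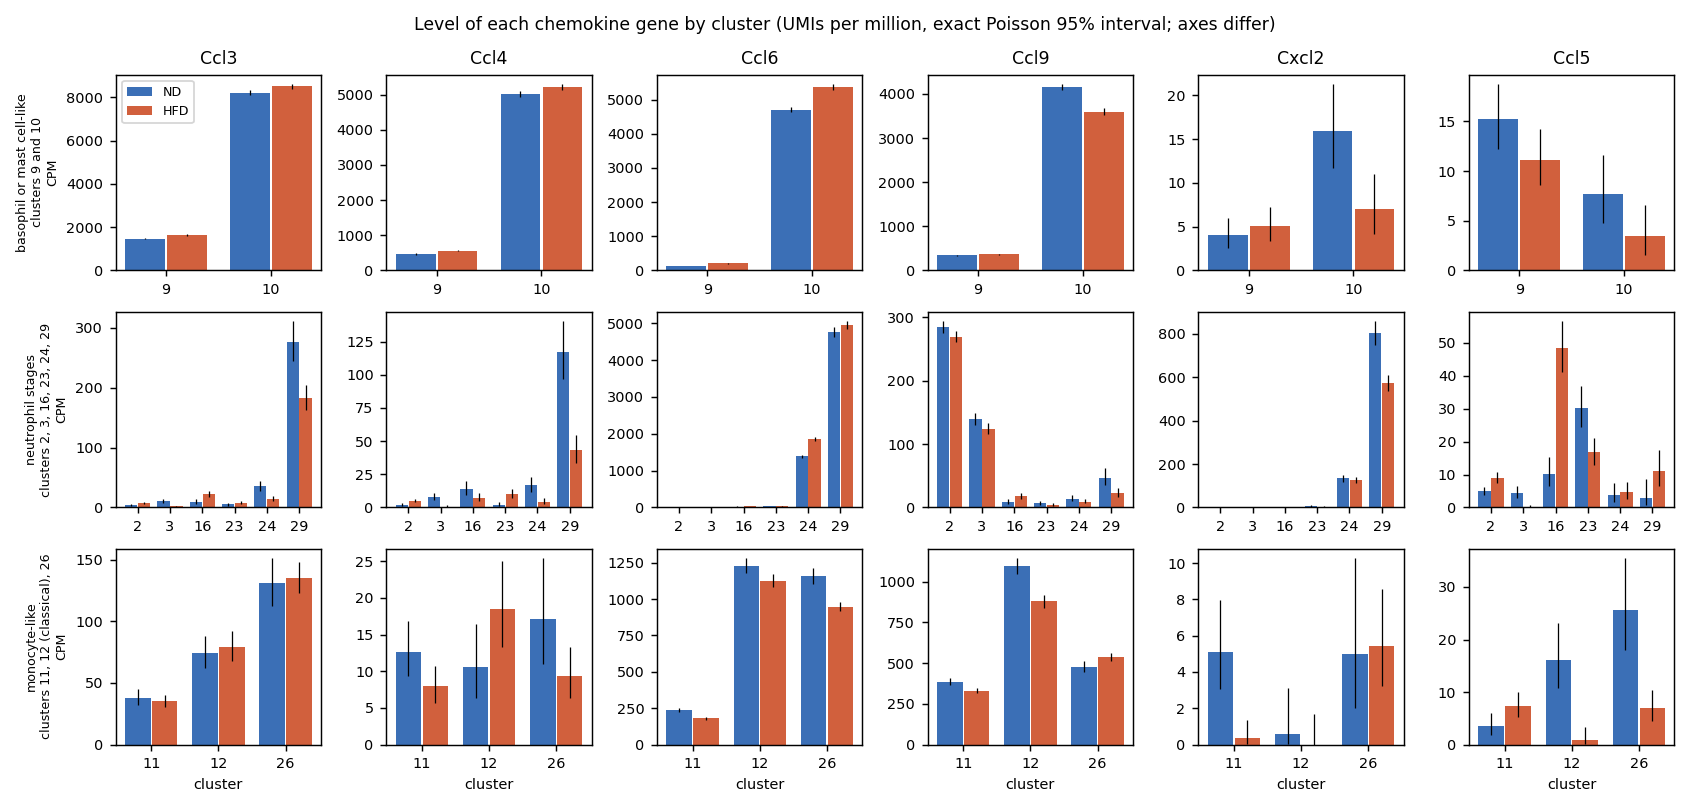
Level of each gene in the clusters of the basophil or mast cell-like class, the neutrophil stages and the monocyte-like classes, in CPM with exact Poisson 95% intervals, with the ND library in blue and the HFD library in orange. Vertical axes differ between panels. Cluster 10 exceeded cluster 9 for Ccl3, Ccl4, Ccl6 and Ccl9, and cluster 29 exceeded cluster 24 for Ccl6 and Cxcl2, in both libraries.

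Among the 6 ligands, Ccl6 was the highest in mature neutrophil-like cells. Its level there was 2406 CPM in the ND library and 2895 CPM in the HFD library, a log2 ratio of 0.27 (0.23 to 0.31). It was the 29th most abundant of 8085 genes of the class, which held 25.9% of its ND and 35.3% of its HFD UMIs. The basophil or mast cell-like class held a larger share of Ccl6 UMIs, 46.5% and 37.7%. After thinning, 72.8% of ND and 78.9% of HFD mature neutrophil-like cells held Ccl6. With doublets kept the ratio was 0.13 and with every cell of the tables kept 0.12. Taking the mean over cells or thinning the cells also lowered it, so its size depended on the processing. The levels fell into 2 clusters: 1386 and 1859.8 CPM in cluster 24 (641 and 966 cells), a log2 ratio of 0.42 (0.36 to 0.49), and 4765 and 4956 CPM in cluster 29 (477 and 835 cells), a log2 ratio of 0.06 (0.00 to 0.11). Immature neutrophil-like cells held 32.8 and 33.1 CPM and neutrophil progenitor-like cells 14.7 and 15.7 CPM. In both libraries the last neutrophil stage thus stood far above those before it.

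Cxcl2 had a narrower source, with 87.7% of its ND UMIs and 90.02% of its HFD UMIs in mature neutrophil-like cells. Its level there was 335 CPM in the ND library and 276 CPM in the HFD library, a log2 ratio of -0.28 (-0.40 to -0.17), which was -0.50 with every cell of the tables kept. The share of thinned cells with a Cxcl2 UMI was 17.4% in the ND library and 17.0% in the HFD library, with none found among thinned erythroid-like cells. At the thinned depth this allows shares of up to 0.35% and 0.47%, and before thinning those cells held 8 and 13 Cxcl2 UMIs. Cluster 29 held 801 and 573 CPM, a log2 ratio of -0.48 (-0.62 to -0.35), and cluster 24 held 134 and 126 CPM, at -0.08 (-0.30 to 0.13). Cells with Cxcl2 were also richer in Ccl6: 85.1% of thinned ND cells with Cxcl2 held Ccl6, against 70.2% of those without, and in the HFD library the shares were 91.1% and 76.4%.

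The other ligands were scarce in mature neutrophil-like cells, and 3 of them were called lower in the HFD library, where 3.56% of all genes tested were called lower. Ccl3 stood at 108 and 70.6 CPM (-0.62, -0.84 to -0.40), Ccl4 at 47.2 and 17.2 CPM (-1.45, -1.85 to -1.06) and Ccl9 at 23.9 and 13.8 CPM (-0.80, -1.29 to -0.31). A few cells carried much of this. The 12 ND cells with the most Ccl4 held 84.6% of its UMIs there. Without the 1% of cells of each library with the most UMIs, Ccl4 was at -0.02 and Ccl3 at -0.37, and neither was called. Ccl9 was then at -0.73 (-1.46 to -0.001) on 68 UMIs and still called, with an interval that barely excluded 0. Cells that held a UMI of the basophil genes Mcpt8, Prss34 or Cpa3 were 13.1% of ND and 12.9% of HFD cells of the class. Without them Ccl3 was at -0.22 and not called. Ccl4 was then at -1.14 and Ccl9 at -0.62, and both were still called lower.

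Ccl9 had a second source in early neutrophil cells, which Ccl6 did not share. Neutrophil progenitor-like cells held 239 CPM in the ND library and 224 CPM in the HFD library, and 17.1% and 19.3% of the gene's UMIs, while immature neutrophil-like cells held 7.35 and 9.85 CPM. Within the progenitors the level was 285 and 269 CPM in cluster 2, led by Mpo and Elane, and 139 and 124 CPM in cluster 3, where Fcnb was also a leading gene. HSPC-like cells, which are haematopoietic stem and progenitor cells by their markers, held 182 and 152 CPM, a log2 ratio of -0.26 (-0.38 to -0.14). Of these Ccl9 UMIs, 71.8% in the ND and 74.2% in the HFD library lay in cells with a UMI of Mcpt8, Prss34 or Cpa3. Such cells were 40.2% and 46.6% of the HSPC-like class. Plasmacytoid dendritic cell-like cells held 120 and 133 CPM, of which cluster 4 had 160.4 and 168 CPM and cluster 17 had 1.84 and 4.56 CPM.

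Monocyte-like cells expressed both Ccl6 and Ccl9. Classical monocyte-like cells held 561 and 460.1 CPM of Ccl6 (-0.29, -0.36 to -0.21) and 617 and 491 CPM of Ccl9 (-0.33, -0.40 to -0.26). Both were thus lower in the HFD library by less than 1.5-fold. Patrolling monocyte-like cells held 1157 and 948 CPM of Ccl6 (-0.29, -0.37 to -0.20) and 477 and 534 CPM of Ccl9 (0.16, 0.03 to 0.29). The 2 classical clusters were unlike in level: cluster 12 held 1230.4 and 1127 CPM of Ccl6 and 1095 and 878 CPM of Ccl9, while cluster 11 held 237 and 179.6 CPM and 385 and 329 CPM. Ccl3 was higher in patrolling than in classical monocyte-like cells, at 131 and 135 CPM against 50.02 and 48.2 CPM, and Ccl4 stayed at or below 17.1 CPM in both classes.

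Ccl6 was also present in macrophage-like cells (418 and 381 CPM), eosinophil-like cells (285 and 404 CPM) and conventional dendritic cell-like cells (221 and 237 CPM). The eosinophil value was higher in the HFD library at 0.50 (0.33 to 0.68), under the 1.5-fold threshold. For Ccl6 the order of classes from mature neutrophil-like to basophil, patrolling monocyte-like and classical monocyte-like was the same in both libraries and neighbouring intervals did not overlap. The macrophage-like and eosinophil-like classes that follow did not differ beyond their intervals in the HFD library. Ccl9 was found in conventional dendritic cell-like cells at 248 and 271 CPM, an interval that overlapped that of the neutrophil progenitors in the ND library.

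Ccl5 stood at 5162 CPM in NK cell-like cells of the ND library and 5011 CPM in the HFD library, a log2 ratio of -0.04 (-0.10 to 0.01). In T cell-like cells it stood at 4937 and 5873 CPM, a log2 ratio of 0.25 (0.21 to 0.29), and it was the 15th most abundant of 9394 genes there. After thinning, 90.8% and 87.3% of NK cell-like cells and 67.4% and 75.6% of T cell-like cells held it, against 0.48% and 0.13% of erythroid-like cells. Innate lymphoid cell 2-like cells came next, at 167 and 203 CPM, where the 1% of cells with the most Ccl5 held 50.9% and 50.5% of its UMIs. All 22 fixed T cell markers had UMIs in the T cell-like class, but 6 NK markers were also among its leading 50 genes, so that class was not free of NK-type transcripts.

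Within the T cell-like class, Ccl5 differed between the libraries in cells with a CD8 transcript and was level in cells without a coreceptor transcript. Cells with a Cd8a or Cd8b1 UMI and no Cd4 UMI, 254 in the ND and 253 in the HFD library, held 4063 and 6222 CPM of Ccl5, and the share of thinned cells with Ccl5 was 54.3% and 74.7%. The log2 ratio of 0.61 (0.56 to 0.67) was called higher, as were Ccl3 at 2.45 (1.86 to 3.10) and Ccl4 at 1.89 (1.48 to 2.32), against 4.36% of all genes in these cells. T cell-like cells with neither coreceptor, 321 and 319, held 6018 and 6174 CPM of Ccl5, a log2 ratio of 0.04 (-0.01 to 0.08), where Ccl3 was called higher at 0.75 (0.18 to 1.33), against 2.68% of genes, and Ccl4 lower at -0.99 (-1.54 to -0.46), against 1.76%. Ccl3 and Ccl4 lay in 9 to 34 cells of these subsets per library. Only 38 ND and 64 HFD cells had Cd4 alone, with 887 and 1755 CPM of Ccl5. This split was chosen after the class values were seen.

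Other genes differed in these T cell-like cells. Of 14 memory or effector genes chosen after these values were seen, 13 reached 20 UMIs in the CD8 cells. In the HFD library 6 were called higher (among them Eomes at 0.68, Gzmm, Gzma, Gzmk and Fasl), against 4.36% of all genes, and none lower. Of 8 naive T cell genes 2 were called lower, Lef1 at -0.77 and Dapl1 at -0.68, and none higher, against 2.4% of all genes called lower. In cells with neither coreceptor, where Ccl5 was level, 3 of 12 memory or effector genes were also called higher, against 2.68% of all genes. They were Gzmm at 1.66, Gzma at 2.97 and Gzmb at 1.61, and none of 7 naive genes was called. Whether a different make-up of the CD8 cells accounts for the Ccl5, Ccl3 and Ccl4 values was not tested.

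**Figure D3:**
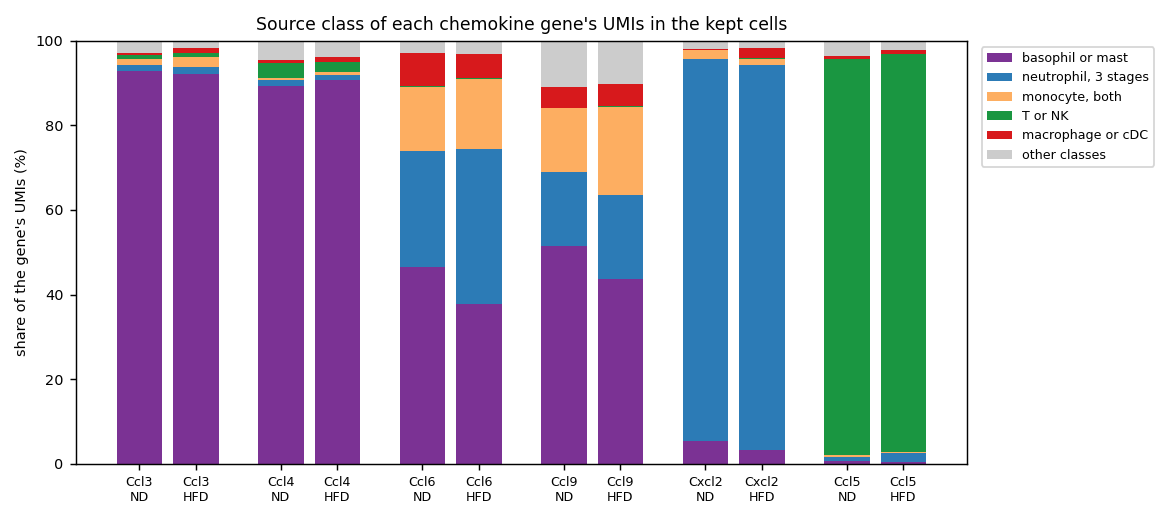
Share of each gene's UMIs, in percent of all its UMIs in the kept cells, by source class, with the ND bar left of the HFD bar for each gene. The basophil or mast cell-like class held over 89% of Ccl3 and Ccl4 UMIs in both libraries, and T or NK cell-like cells 93.7% and 94.2% of Ccl5. Of the Ccl6 UMIs, the basophil or mast cell-like class held 46.5% and 37.7%, and the 3 neutrophil stages 27.4% and 36.8%.

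The libraries also differed in how many cells of each class they held, which changed the sources of the ligands. Mature neutrophil-like cells were 8.05% of ND cells and 11.9% of HFD cells, patrolling monocyte-like cells 3.34% and 6.78%, and NK cell-like cells 2.98% and 1.45%. Mean Ccl6 per kept cell was 2.21 UMIs in the ND library and 2.63 in the HFD library, a ratio of 1.19. Changing only the class means, in UMIs per cell, to those of the HFD library gave 1.05. Changing only the class shares gave 1.14. These means are not CPM and also carry the depth of the cells. For Cxcl2 the ratio was 1.08, made of 0.776 from class means alone and 1.42 from shares alone. For Ccl5 it was 0.867, made of 1.12 from class means and 0.762 from shares. Ccl3 (0.903) and Ccl4 (0.880) followed the shares, at 0.907 and 0.891, and Ccl9 (0.884) followed the class means, at 0.891. Whether the shares reflect the marrow or the cells that were loaded cannot be told apart with 1 library per diet.

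Over all pairs of a gene and a class, main sources included, 92 reached 20 UMIs and 22 did not. Among the 92 pairs, 14 (15.2%) were called higher and 18 (19.6%) lower in the HFD library, against 2.54% and 2.29% of 185168 pairs over all genes. In 30 of the 32 called pairs, however, 1% of the cells of the class held at least 50% of the UMIs in at least 1 library. Leaving out the single richest cell of each library kept 22 of the 32 calls, leaving out the richest 1% of cells kept 11, and leaving out cells with a UMI of Mcpt8, Prss34 or Cpa3 kept 17, with a call again needing at least 20 UMIs. The intervals treat UMIs as independent and are too narrow for such genes.

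**Figure D4:**
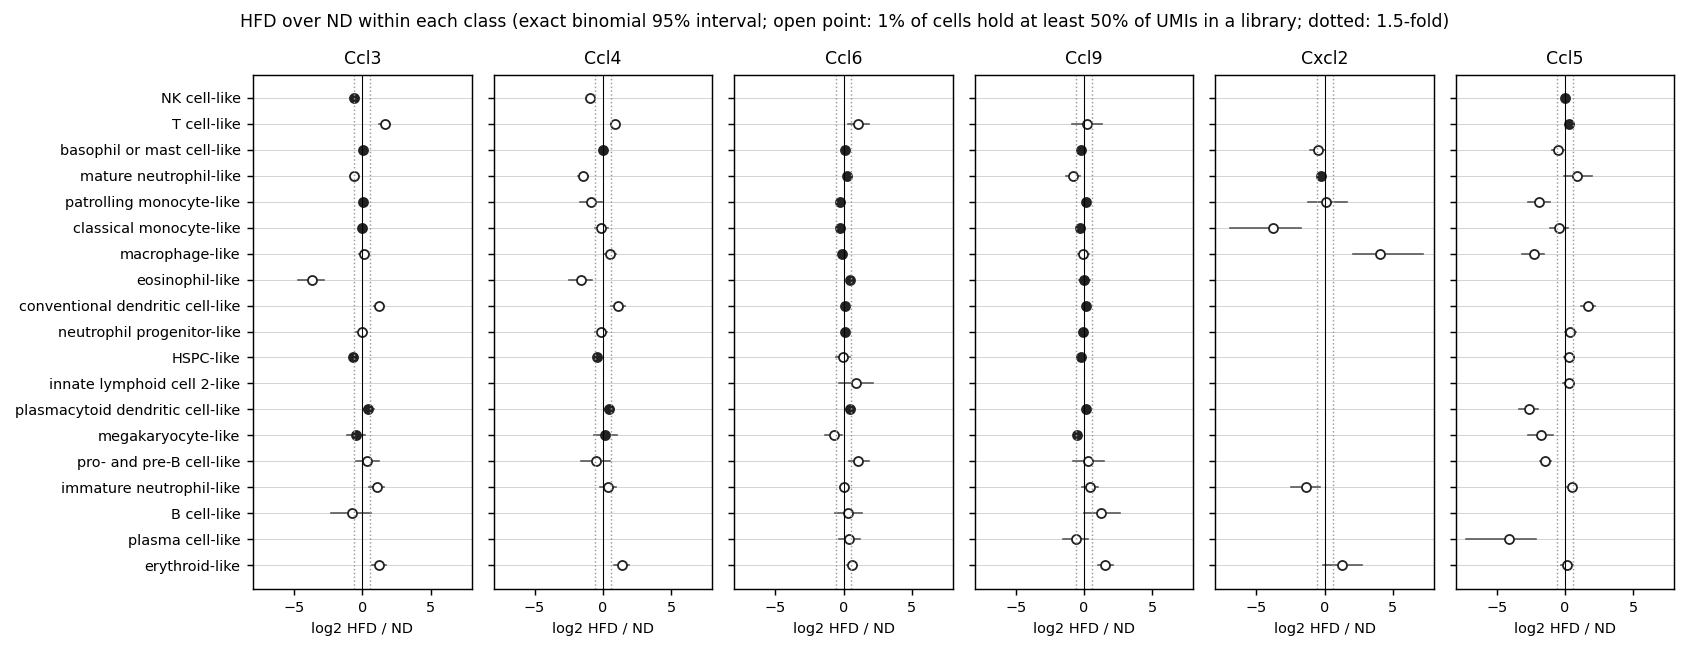
Log2 ratio of HFD over ND for each gene in each class with at least 20 UMIs, with exact binomial 95% intervals. Open points mark pairs in which 1% of cells held at least 50% of the UMIs in a library, and dotted lines mark 1.5-fold. Filled points lay between the dotted lines, apart from those of Ccl3 in HSPC-like and NK cell-like cells.

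Ccl3 in HSPC-like cells was the called pair with the most cells behind it. It stood at 79.8 CPM in the ND library, on 170 cells with a UMI, and 48.9 CPM in the HFD library, on 118 cells, a log2 ratio of -0.71 (-0.90 to -0.51) where 2.32% of genes were called lower. Ccl4 stood at 79.8 and 58.3 CPM there, at -0.45 (-0.64 to -0.27). Without the richest 1% of cells Ccl3 was at -0.67 and still called. Without cells holding a basophil protease UMI, which were 40.2% of ND and 46.6% of HFD cells of the class, it was at -0.31 and not called. These cells held 29.8% of the class's Ccl3 UMIs in the ND library and 16.4% in the HFD library.

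In NK cell-like cells Ccl3 stood at 175 and 115 CPM (-0.60, -0.94 to -0.27) and Ccl4 at 344 and 178 CPM (-0.95, -1.22 to -0.70), and both were called lower, against 2.23% of genes. The shares of thinned cells with a UMI did not follow: 11.1% and 11.4% for Ccl3, and 8.94% and 9.55% for Ccl4. The richest ND cell held 172 Ccl4 UMIs and the richest HFD cell 41. Without the richest 1% of cells, 5 ND and 3 HFD cells, Ccl4 was at -0.40 and Ccl3 at -0.31, and neither was called.

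In T cell-like cells 3 genes were called higher, against 3.3% of all genes. Ccl3 stood at 32.1 and 99.0 CPM (1.62, 1.23 to 2.03), Ccl4 at 69.7 and 126 CPM (0.86, 0.57 to 1.15) and Ccl6 at 9.96 and 20.7 CPM. Ccl3 was found in 20 ND and 43 HFD cells, and 81.7% and 82.2% of its UMIs lay in 7 cells of each library. In conventional dendritic cell-like cells 3 genes were called higher as well, against 3.39% of genes: Ccl3 at 19.0 and 44.5 CPM (1.23, 0.87 to 1.59), Ccl4 at 10.4 and 22.0 CPM (1.08, 0.58 to 1.59) and Ccl5 at 9.60 and 30.6 CPM (1.67, 1.19 to 2.18). Leaving out the richest 1% of cells kept the calls of Ccl3 and Ccl4 in both classes and of Ccl5 in dendritic cells, and left 18 UMIs for Ccl6 in T cell-like cells, too few for a call. Keeping doublets moved dendritic Ccl3 to -0.22 and Ccl5 to -0.54.

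Eosinophil-like and erythroid-like cells gave calls on few UMIs. In eosinophil-like cells Ccl3 stood at 79.5 and 6.18 CPM (-3.69) and Ccl4 at 29.4 and 9.55 CPM (-1.62), both called lower, against 2.59% of genes. A single ND cell held 63 of the 130 Ccl3 UMIs, and 90.8% of them lay in cells that also held a UMI of Mcpt8, Prss34 or Cpa3. Ccl4 was left with 13 UMIs and a ratio of 0.55 without the richest 1% of cells, and with 11 UMIs and 2.81 without the protease cells, both too few for a call. In erythroid-like cells Ccl3, Ccl4, Ccl6 and Ccl9 were each called higher, against 2.6% of genes, at 1.21, 1.36, 0.63 and 1.56, yet no level passed 7.32 CPM. Without protease cells Ccl3 (0.25), Ccl4 (-0.030) and Ccl6 (0.44) were not called and Ccl9 (1.35) was, and such cells held 78.2% of the Ccl3 and 81.3% of the Ccl4 UMIs of the HFD library. Without the richest 1% of cells Ccl3 (0.23) was not called. The other 14 called pairs had between 22 and 240 UMIs over both libraries, and 6 of them were Ccl5 lower in classes other than T cell-like and NK cell-like. None of these 14 was called without the richest 1% of cells, and 11 of them then had under 20 UMIs.

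Ccl3 and Ccl4 were not in a fixed proportion. The basophil or mast cell-like class had 0.533 Ccl4 UMIs per Ccl3 UMI in the ND library and 0.532 in the HFD library. NK cell-like cells had 1.97 and 1.54, T cell-like cells 2.17 and 1.27, plasmacytoid dendritic cell-like cells 1.38 and 1.42, HSPC-like cells 1.00 and 1.19, and patrolling monocyte-like cells 0.130 and 0.0690. In both libraries the NK cell-like, T cell-like and plasmacytoid values thus stood above that of basophils and the patrolling monocyte-like value below it. These ratios have no interval, and some rest on few cells or UMIs. The richest 1% of cells held 81.2% and 79.5% of Ccl4 UMIs in T cell-like cells, and 64.8% and 48.1% in NK cell-like cells. Patrolling monocyte-like cells had 24 and 31 Ccl4 UMIs.

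Over the 30 clusters, Ccl3 and Ccl4 were the most alike of the 6 genes, with a Pearson correlation of log2(CPM + 1) of 0.88, followed by Ccl6 and Cxcl2 at 0.73. These correlations describe clusters that share 2 libraries and carry no test. Among 10622 genes, the 3 most like each were as follows. Ccl4 led for Ccl3, before Lama5 (0.80) and Grm6 (0.80), and Ccl3 led for Ccl4, before Sytl3 (0.82) and Rgs1 (0.80). For Ccl6 they were Nlrp3, the inflammasome sensor (0.91), Trpm2, a cation channel (0.86), and Hcar2, a receptor for hydroxybutyrate and niacin (0.86). For Ccl9 they were Tmem150b (0.86), Ms4a6c (0.83) and Gspt2 (0.82). For Cxcl2 they were H2-Q10 (0.91), Mirt2 (0.89) and Arg2, the mitochondrial arginase (0.89). For Ccl5 they were Il2rb, a chain of the receptors for IL-2 and IL-15 (0.96), Eomes, a transcription factor of NK and memory CD8 cells (0.93), and Klra7, an NK receptor (0.91).

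The receptors of these ligands were found in several classes, the ligands' own sources among them. Of the fixed list of 8, Cxcr2 was highest in mature neutrophil-like cells, at 3004 and 3509 CPM (0.22, 0.19 to 0.26), the same cells that held its ligand Cxcl2, and stood at 502 and 545 CPM in basophil or mast cell-like cells. Ccr1 stood at 559 and 585 CPM in mature neutrophil-like cells (0.07, -0.02 to 0.15) and at 308 and 285 CPM in basophil or mast cell-like cells. Ccr3 stood at 1563 and 1274 CPM in macrophage-like cells and at 67.9 and 124 CPM in eosinophil-like cells, where it was called higher at 0.86 (0.53 to 1.21). In the leading classes of the ligands, 1 of 4 tested receptors was called in mature neutrophil-like cells (Cxcr1, higher, against 1.83% of all genes), 0 of 4 in basophil or mast cell-like cells and 0 of 2 in T cell-like cells.

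Of the fixed list of 32 other chemokine ligands, 27 were in a table, and few had many UMIs. Xcl1, the lymphotactin of NK and CD8 cells, stood at 1013 and 651 CPM in NK cell-like cells (-0.64, -0.78 to -0.50) and at 390 and 306 CPM in T cell-like cells. Cxcl9, an interferon gamma target, stood at 15.5 and 88.3 CPM in conventional dendritic cell-like cells (2.51, 2.15 to 2.88). The platelet chemokines Pf4 and Ppbp were higher in the HFD library in megakaryocyte-like cells, at 0.60 (0.57 to 0.64) and 2.28 (2.20 to 2.35). Both are among the markers that name that class and were not left out of the clustering. Cxcl12, the retention signal of marrow, stood at 86.5 and 87.8 CPM in HSPC-like cells. In basophil or mast cell-like cells 1 of 5 tested ligands was higher (Ppbp) and 1 lower (Ccl17, at -0.91), against 1.72% and 1.45% of all genes. Their median was 0.01, equal to that of all genes.

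Genes that share signals with the ligands were read from lists. In basophil or mast cell-like cells, 4 of 20 immediate early genes were called lower, against 1.45% of all genes, and none higher. Their median was -0.27 against 0.01 for all genes. The most abundant was Egr1, a growth factor-induced transcription factor, at 2189.5 and 1059 CPM (-1.05, -1.08 to -1.01), and Egr2 stood at -1.67, Egr3 at -1.07 and Nr4a1 at -0.79. Of 21 NF-kB feedback and target genes 1 was called higher, Tnfaip2, against 1.72% of all genes, and none lower. Their median was -0.07. Nfkbia, the inhibitor that NF-kB induces, stood at 701 and 877 CPM (0.32, 0.27 to 0.37). Ccl3 and Ccl4 were level in the same class. In mature neutrophil-like cells 3 of 19 immediate early genes were lower, among them Egr1 at -0.63, against 3.56% of all genes, and 1 of 22 NF-kB genes was higher (Tnfaip3, at 0.75), against 1.83%. The medians of the lists there were 0.01 and 0.02, against -0.05 for all genes. In conventional dendritic cell-like cells 6 of 24 NF-kB genes were higher, among them Il1b at 2.25 and Tnf at 0.99. So were 6 of 19 immediate early genes, against 3.39% of all genes for both lists. The medians were 0.24 and 0.40 against 0.00 for all genes.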

How the data were processed

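The deposited tables, 1 per diet, hold counts: error-corrected UMIs from version 1.9.1 of BD's WTA Rhapsody Analysis Pipeline, as the authors ran it per the file headers. Genome build and annotation: not given in the sources used here. Genes were matched by symbol (20478 of 24014 shared). Cells under 200 genes or over 25% mitochondrial UMIs were dropped (2515 ND, 1632 HFD), then Scrublet doublets (420 and 465). Without integration, 2000 variable genes, without 31 chemokine genes, 30 principal components, 15 neighbours and Leiden resolution 1.0 (scanpy 1.11.5, Python 3.11.15, scipy 1.17.1) gave 30 clusters. A cluster took the class with the most fixed markers among its top 50 genes by fold (pseudocount 10 CPM, at least 3 markers). Cluster 27 was named pro- and pre-B cell-like by a tie-break.

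UMIs were summed per class and library. Where a library had no UMI, 3 UMIs served as its floor. Shares of cells used cells thinned to 1000 UMIs and Clopper-Pearson intervals. The ratio code was tested on simulated data. Named genes were the 6 ligands, the 3 genes most like each (at least 500 UMIs), up to 3 genes per list, and receptors and ligands with at least 200 UMIs in a library. The members, lists and markers were chosen with earlier results of these data known. Alternatives covered cell filters, doublets, resolution, scaling, thinning and left-out cells; those on single cells, shared indices, basophil protease cells and T cell subsets were added after seeing the data. Some genes of these lists are not reported here.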

Additional observations from a re-analysis of the deposited data

Results flagged for a closer look

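The classes moved in opposite directions for Ccl3 and Ccl9, with intervals on either side of 0 and calls that held without the richest 1% of cells. Ccl3 had a log2 ratio of HFD over ND of -0.71 in HSPC-like cells and -3.69 in eosinophil-like cells, but 1.62 in T cell-like cells and 1.23 in conventional dendritic cell-like cells. The eosinophil value rests on 130 ND UMIs, 63 of them in 1 cell, against 11 HFD UMIs. Without cells holding Mcpt8, Prss34 or Cpa3 it was -1.52 on 18 UMIs, too few for a call, and the HSPC value was -0.31 and not called. With doublets kept the dendritic value was -0.22. Ccl9 was at 1.56 in erythroid-like cells, on 47 and 92 UMIs and under 6 CPM in both libraries, and at -0.80 in mature neutrophil-like cells. Without the richest 1% of cells the erythroid value was 2.11 (0.90 to 3.48) on 31 UMIs. The neutrophil value was then -0.73 on 68 UMIs, and its interval of -1.46 to -0.001 barely excluded 0. The differences between classes were not tested, since each diet had 1 library.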

How the results depend on the processing

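No paired analysis was possible because each diet had 1 library. Under 13 alternatives each, none called, Ccl3 in basophil or mast cell-like cells ran from -0.02 to 0.03, Ccl4 from -0.03 to 0.04 and Ccl9 from -0.28 to -0.23. The values outside the counting interval were -0.020 for Ccl3 and -0.025 for Ccl4 at Leiden resolution 2.0, -0.018 and -0.024 when thinned, and -0.029 for Ccl4 with doublets kept. Ccl6 in mature neutrophil-like cells was at 0.12 with all cells, 0.13 with doublets, 0.15 and 0.16 at Leiden resolutions 0.5 and 2.0, 0.14 with chemokine genes in the clustering, 0.18 as a mean over cells and 0.19 when thinned. Cxcl2 there was at -0.50 with all cells, -0.45 with doublets, -0.40 at resolution 0.5 and -0.41 with chemokine genes in the clustering. Ccl5 in T cell-like cells was at 0.21 with size factors, 0.30 as a mean over cells, 0.29 thinned, 0.19 without the richest 1% of cells, 0.21 without cells holding Mcpt8, Prss34 or Cpa3, 0.61 in Cd8 cells and 0.037 in cells with neither coreceptor. With a minimum of 100 UMIs in place of 20, fewer genes are tested, and those called higher and lower fell to 133 and 59 in T cell-like cells (from 310 and 169), 78 and 71 in basophil or mast cell-like cells (from 189 and 160) and 74 and 94 in mature neutrophil-like cells (from 148 and 288).

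Alternatives were also run for 33 other ratios (pairs with at least 1000 UMIs, or called on at least 100), which gave 464 values. A turn in direction was counted only for ratios called in the main setting, so sign changes of uncalled ratios are left out. Among the 464 values, 10 turned in direction, and the cause was not tested. With doublets kept these were Ccl3 (-0.22) and Ccl5 (-0.54) in conventional dendritic cell-like, Ccl3 in immature neutrophil-like (-0.12) and Ccl5 in pro- and pre-B cell-like cells (0.62, and 1.92 at resolution 2.0). The rest were Ccl3 in immature neutrophil-like cells without the richest 1% of cells (-0.64), Ccl4 in erythroid-like cells without cells holding Mcpt8, Prss34 or Cpa3 (-0.030), Ccl6 in erythroid-like cells as a mean over cells (-0.034) and thinned (-0.58), and Ccl4 in T cell-like cells with neither coreceptor (-0.99). Called pairs under 100 UMIs were recomputed only without the richest cell, the richest 1% of cells or the protease cells. Those that turned were Ccl4 in eosinophil-like (0.55 without the richest 1%, 2.81 without protease cells), Ccl6 in pro- and pre-B cell-like (-0.51 without the richest 1%), and Ccl5 in megakaryocyte-like (1.19, 0.46 and 1.27 in that order), patrolling monocyte-like (1.26 without the richest cell) and plasma cell-like cells (0.63 without the richest 1%). Below about 100 UMIs a class value rests on few cells.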

Other observations

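Of the list of 12 heat shock genes, 2 of 11 tested were called higher in basophil or mast cell-like cells, 3 of 11 in T cell-like cells and 1 of 9 in mature neutrophil-like cells, against 1.72%, 3.3% and 1.83% of all genes. The medians were 0.19, 0.34 and -0.03. In basophil or mast cell-like cells Hspa1b stood at 1.98 and 31.9 CPM, a log2 ratio of 4.01 (3.30 to 4.81), and in T cell-like cells at 25.3 and 257 CPM, 3.34 (2.95 to 3.76). At least 1 gene of the list was called higher in each of the 19 classes and none was called lower in any. Within basophil cluster 10, the cytokine gene Osm stood at 1894 CPM in the ND library and 1214 CPM in the HFD library, while Csf1, the macrophage growth factor, stood at 1665 and 1737 CPM.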
